A study of Mus musculus with 4 samples.

Results

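Lipoxygenases and the enzymes and receptors of the leukotriene pathway were examined on 4 arrays of cells washed from the airspaces of bleomycin–administered mice. The set holds 9 genes: the lipoxygenases Alox15, Alox12 and Alox5, the helper protein Alox5ap, the synthases Lta4h and Ltc4s, and the receptors Cysltr1, Cysltr2 and Ltb4r1. Members were all non-control probes of the array whose transcript accession belongs to 1 of these genes, which gave 11 of 39429 probes and 9 of the 20832 genes that could be named on the array, with 2 probes each for Alox12 and Cysltr1 and 1 for each other gene.

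Lipoxygenases add oxygen to arachidonic acid and other polyunsaturated fatty acids. In the leukotriene branch, ALOX5 works with the membrane protein FLAP, encoded by Alox5ap, to make the unstable epoxide leukotriene A4, which LTA4H turns into leukotriene B4, a chemoattractant for granulocytes, and LTC4S joins to glutathione to make leukotriene C4, the first of the cysteinyl leukotrienes that contract airway smooth muscle and make vessels leaky. Mouse ALOX15 belongs to another branch, whose hydroxy fatty acids and pro-resolving mediators are made by eosinophils, by some resident macrophages and by macrophages exposed to interleukin-4 or interleukin-13.

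The study asked how loss of the sphingosine-1-phosphate receptor gene S1pr2 alters gene expression in BALF cells, the cells of bronchoalveolar lavage fluid, during bleomycin–induced lung fibrosis. There were 2 arrays from wild-type mice and 2 from S1pr2-/- littermates that carry a targeted disruption of the gene in every cell, on a 129Ola;C57BL/6J mixed background backcrossed to C57BL/6J once. All mice, 8 to 10 weeks old at the start, had received bleomycin at 0.035 U/g by repeated intraperitoneal injection, and cells were taken on day 22, so that saline controls do not enter the comparison. The study calls the 2 RNA samples of a genotype independent, but how many mice gave each sample, and whether cells were pooled, is not given in the sources used here, so that the p-values below measure only the spread between these samples.

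Values are given as log2 of the probe's background-corrected signal over the 75th percentile of its array, with a floor at 0.01 of that percentile (log2 of -6.64), and a difference is S1pr2-/- minus wild-type. The 75th percentiles lay between 2489 and 2817 intensity units, and 67.6% to 72.1% of probes were called well above background on an array. The S1pr2 probe read -0.13 and -0.16 in wild-type against 2.67 and 2.54 in the arrays labelled S1pr2-/-. This goes against the label, and whether the probe lies in the disrupted part is not given in the sources used here, so that every direction below rests on the labels. The labels call the cells alveolar macrophages, and all 10 alveolar macrophage markers listed, among them Marco and Chil3, were well above background on all 4 arrays, with a median log2 difference of -0.035 and none past an unadjusted p of 0.05. For 6 of 7 lung epithelial markers, neither S1pr2-/- value reached a wild-type one, as for 21.9% of all genes tested, with a median log2 difference of -0.37, and 1 of them (Krt18, -0.45) passed that p. The 7 markers of monocyte-derived macrophages had a median of 0.58. The medians were -0.32 for 5 T cell and -0.85 for 4 B cell markers, 0 of the macrophage and lymphocyte markers passed that p, and the part of these cells in the results below was not tested. With 2 arrays per genotype, the smallest p of an exact two-sided permutation test is 0.333, and precision is limited by how few arrays there are. Of 27158 probes tested with limma, 0 passed an adjusted p of 0.05 (Benjamini-Hochberg), while at an unadjusted p under 0.05, 5.59% were lower and 3.99% were higher on the arrays labelled S1pr2-/-.

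Among the members, Alox15 stood apart, with a mean more than 4 log2 units lower on the arrays labelled S1pr2-/-. The 5-lipoxygenase route of Alox5, Alox5ap, Lta4h and Ltc4s differed by at most 0.14 log2 units in the fit as reported. In the alternatives the largest difference of these genes was 0.27, for Ltc4s without S1pr2-/- replicate 1. Of the 11 member probes, 9 passed the filter on low signal and were tested. At an unadjusted p under 0.05, 1 was lower (Alox15) and 0 were higher, and 0 passed after adjustment. The median log2 difference of the 9 probes was -0.068, against -0.003 over all probes tested. For 3 of the 9 probes, both arrays labelled S1pr2-/- lay below both wild-type arrays (Alox15, Lta4h and Ltb4r1), as they did for 21.8% of all probes tested, and for 1 (Alox5ap) they lay above, as for 20.0% of all. Past a 2-fold difference as well as an unadjusted p under 0.05, 1 member probe was lower and 0 were higher, where 0.633% and 0.107% of all probes were. The plot of every member probe on every array shows that the genotypes overlap for the other 5 tested probes.

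**Figure D1:**
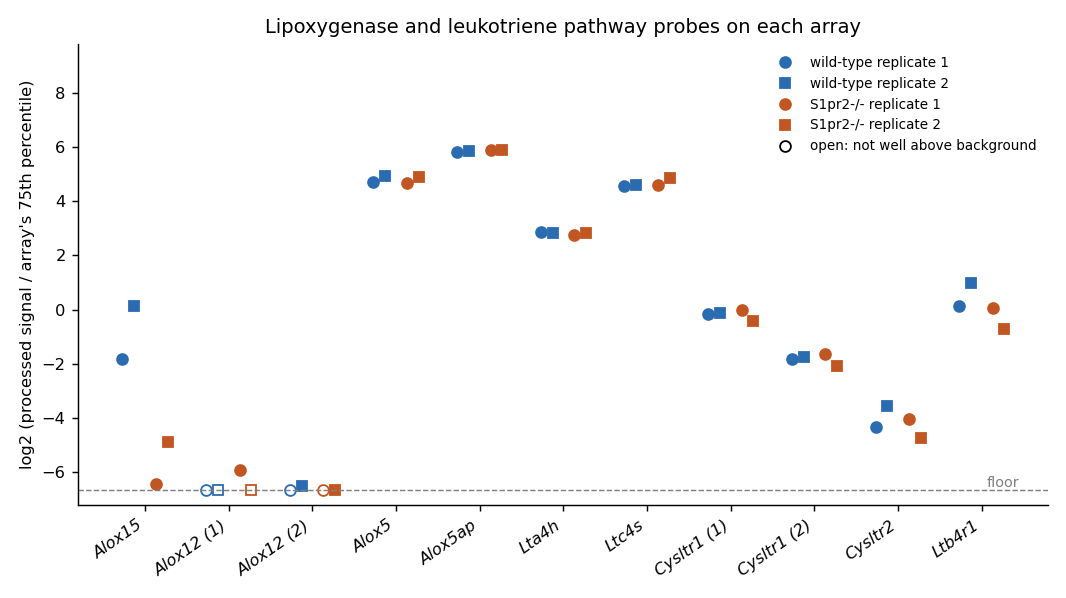
Level of each of the 11 member probes on each of the 4 arrays, in log2 units relative to the 75th percentile of the array (vertical axis), with 1 point per array, blue for wild-type and orange for S1pr2-/-. Open points were not well above background, the dashed line is the floor, and Alox15 is the only probe with a wide gap between the genotypes; levels of different probes are not comparable with each other.

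Alox15, which encodes the lipoxygenase of eosinophils and macrophages that oxygenates fatty acids near the methyl end, read -1.81 and 0.15 on the log2 scale in wild-type against -6.42 and -4.89 in the arrays labelled S1pr2-/-. In processed signal these are 730 and 2757 intensity units against 32.8 and 86.7, where the dimmest probe called well above background had 23.7, 17.5, 18.7 and 14.8 units on the same arrays. The probe was well above background on all 4 arrays, and the genotypes did not overlap. The group means were -0.83 ± 1.38 (SD, n = 2) and -5.66 ± 1.08 (SD, n = 2), a log2 difference of -4.83 (SE 0.97) or 28.4-fold lower signal, with a 95% interval of 3.69 to 219-fold lower. The unadjusted p was 0.0126 and the adjusted p was 0.509 (limma with Benjamini-Hochberg adjustment), so that the difference did not pass the threshold over all probes. Of 27158 probes, 4 had a more negative log2 difference and 0 had one above 4.83 in the other direction, while 606, Alox15 included, had an unadjusted p at or below its own.

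The replicates of Alox15 were also far apart. The wild-type arrays differed by 1.96 and the arrays labelled S1pr2-/- by 1.53 log2 units, with replicate 2 the higher in both genotypes. These gaps were larger than those of 99.5% and 99.7% of the probes tested, where the median gap was 0.124 and 0.123. The fold therefore moved with the arrays used: it was 55.9-fold lower without wild-type replicate 1, 14.4-fold without wild-type replicate 2, 16.7-fold without S1pr2-/- replicate 1 and 48.3-fold without S1pr2-/- replicate 2, with unadjusted p between 0.0216 and 0.0728. Without S1pr2-/- replicate 1 that p was 0.0728, above 0.05. Background correction with normexp, made on the median signal with an offset added to every spot, gave 12.8-fold lower. A percentile taken over detected probes, with the floor kept at 0.01 of it, gave 18.9-fold lower. Rescaling moves every probe above the floor alike, and Alox5 went only from -0.035 to -0.025 on the log2 scale. The 18.9-fold is therefore limited by the floor, near which S1pr2-/- replicate 1 already lay (-6.42 against -6.64). The direction held in all 16 alternatives, as the plot of Alox15 under each setting shows.

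**Figure D2:**
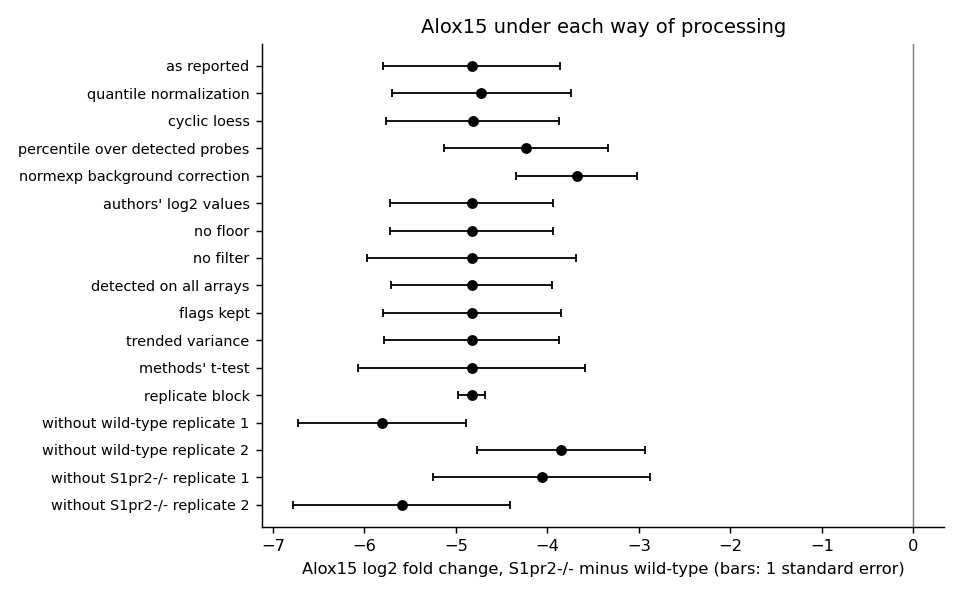
Log2 difference of Alox15, S1pr2-/- minus wild-type (horizontal axis), in the fit as reported and under each of 16 alternatives, with bars of 1 standard error. All points lie below 0, between -5.80 and -3.68.

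Of the other lipoxygenases next to Alox15 on chromosome 11, Alox12e could be compared with it and Alox12 could not. In the RefSeq gene order of the assembly GRCm38.p6, Alox12, Alox12e and Alox15 follow each other, and Pelp1 lies on the other side of Alox15. Alox12, the platelet-type lipoxygenase, was close to the limit of the array. Its first probe was at the floor of -6.64 on both wild-type arrays and on S1pr2-/- replicate 2, and had -5.91 on S1pr2-/- replicate 1, the only array on which it was well above background. Its second probe was at the floor on 3 arrays and had -6.52 on wild-type replicate 2, and it was well above background there and on S1pr2-/- replicate 2. Neither probe was well above background on both arrays of a genotype, so that neither was tested and no fold is given. Among 6 platelet and megakaryocyte markers, 2 could be tested (Pf4 and Gp1bb), with 0 past an unadjusted p of 0.05 in either direction, and Gp1ba and Gp9 were at the floor on all arrays. Their summed ratio to the 75th percentile was 1.73 and 1.71 in wild-type against 2.89 and 1.69. Nearly all of that sum was Pf4, with 1.67 and 1.64 against 2.83 and 1.63. The part of platelets in the Alox12 values was not tested.

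Alox12e, a lipoxygenase known from epidermis, is no member but is read here as the neighbour of Alox15. On the log2 scale it read -1.91 and -0.56 in wild-type against -4.83 and -3.90 in the arrays labelled S1pr2-/-, with wild-type replicate 2 the highest and S1pr2-/- replicate 1 the lowest, the same order of arrays as for Alox15. The log2 difference was -3.13 (SE 0.64, unadjusted p = 0.0133, adjusted p = 0.509, limma), and without S1pr2-/- replicate 1 the unadjusted p was 0.0798. The 2 genes are paralogs, and the probe sequences were not used here, so that signal shared between their transcripts cannot be told apart from separate signals. Of the 12 neighbours examined, a range chosen after the values were seen, the others tested lay between -0.47 (Zmynd15, unadjusted p = 0.0227, limma) and 0.30 (Rnasek), and Slc16a13 gave -0.21 (unadjusted p = 0.0367, limma). Those directly beyond Alox15 gave -0.04 for Pelp1, -0.02 for Arrb2 and 0.03 for Med11 on the log2 scale.

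The upstream sequences of the 2 lipoxygenase genes beside Alox15 are shown because 1 of them moved with it and the other stayed at the limit of detection. Each line holds the 250 bases before the start of the gene in RefSeq (GRCm38.p6), written along the gene's own strand from 5′ to 3′, with matches in capitals. Both strands were searched for the GC box that SP1 binds, GGGCGG, which reads CCGCCC when it lies on the opposite strand. They were also searched for the core that GATA factors bind, GATAA, which then reads TTATC. These 2 motifs were chosen after values were seen, and no matches overlapped. Alox12e lies at chr11:70322531-70322780 and Alox12 at chr11:70255371-70255620, both on the minus strand.
Alox12e: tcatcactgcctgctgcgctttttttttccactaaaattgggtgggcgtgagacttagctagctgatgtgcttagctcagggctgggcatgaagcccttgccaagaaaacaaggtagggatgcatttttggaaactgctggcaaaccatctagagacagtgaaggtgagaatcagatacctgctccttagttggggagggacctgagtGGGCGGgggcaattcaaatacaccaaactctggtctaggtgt
Alox12: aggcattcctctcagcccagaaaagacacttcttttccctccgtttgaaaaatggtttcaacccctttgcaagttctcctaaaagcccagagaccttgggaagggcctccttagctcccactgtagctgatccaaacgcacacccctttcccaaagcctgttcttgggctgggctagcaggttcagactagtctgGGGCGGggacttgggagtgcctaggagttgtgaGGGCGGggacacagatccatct

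Both windows hold the GC box, Alox12e 1 time and Alox12 2 times, and neither holds the GATA core. Of 32851 promoters of the same length in the table, 32.7% hold the GC box and 22.6% hold the GATA core. A match describes the letters in this window and is not evidence of binding. Upstream sequence was found for 6 of the 9 members. Alox15, Alox5ap and Cysltr1 are named only.

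Several markers of eosinophils were among the genes whose values ran closest to those of Alox15. By the root-mean-square distance between log2 values over the 4 arrays, each centred on its own mean, the nearest of 15398 other named genes were Retnlg (0.231), Prg2 (0.307), Ccr3 (0.344), Gata1 (0.448), F5 (0.457), Cebpe (0.486), Ren2 (0.499) and Epx (0.514). Prg2 and Epx encode granule proteins of eosinophils, Ccr3 is their eotaxin receptor, Gata1 and Cebpe are transcription factors of granulocyte development, and Retnlg stands in the neutrophil list. These distances describe 4 arrays and were not tested, and that of Epx includes a value at the floor.

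**Figure D3:**
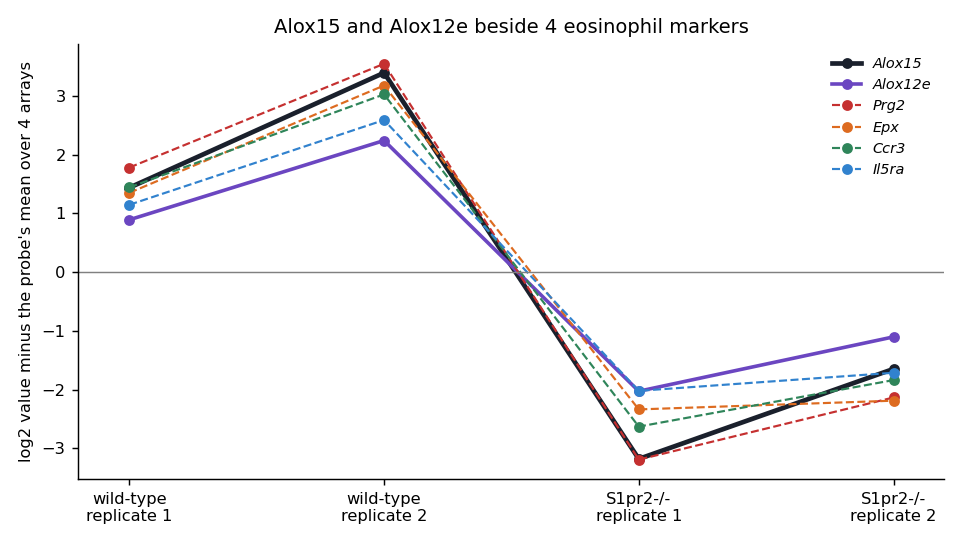
Log2 value on each array minus the probe's mean over the 4 arrays (vertical axis) for Alox15 and Alox12e (solid) and 4 of the 7 eosinophil markers listed (dashed), with Epx at the floor on S1pr2-/- replicate 1. The lines only join the points of a gene. All 6 genes shown are highest on wild-type replicate 2, and both arrays labelled S1pr2-/- lie below both wild-type arrays. The eosinophil markers Ear6, Siglecf and Prg3 are not shown, nor is Retnlg of the neutrophil list, the gene nearest to Alox15.

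Of the 7 eosinophil markers listed, 5 were well above background on all 4 arrays, and 3 of these were lower at an unadjusted p under 0.05, where 5.96% of all genes were. Their log2 differences were -5.32 for Prg2, -4.47 for Ccr3 and -3.73 for Il5ra. The other 2 of the 5, Ear6 and Siglecf, gave -0.79 and -0.15, and mouse alveolar macrophages also express Siglecf. Epx read -2.96 and -1.13 in wild-type, was at the floor and not well above background on S1pr2-/- replicate 1, and read -6.50 on S1pr2-/- replicate 2, so that no fold is given. It was tested and was lower at an unadjusted p of 0.00613 (limma), which makes 4 lower of the 6 markers tested. Prg3 was not tested and lay at the floor on 3 arrays. The summed ratio of all 7 to the 75th percentile was 43.8 and 52.2 on the wild-type arrays against 35.5 and 40.1 on the arrays labelled S1pr2-/-. Without Siglecf and Ear6, a choice made after the values were seen, the sums were 2.09 and 6.63 against 0.123 and 0.196. The part of eosinophils in the Alox15 difference was not tested, and in RNA of mixed cells fewer cells of a type and less RNA per cell cannot be told apart.

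Alox5, the enzyme that starts leukotriene synthesis, read 4.69 and 4.94 in wild-type against 4.68 and 4.88 in the arrays labelled S1pr2-/-. The genotypes overlapped, and the log2 difference was -0.03 (SE 0.135, 95% interval -0.44 to 0.37, adjusted p = 0.944, limma). Each genotype had its higher value on replicate 2, and the gap between replicates was larger than the difference between genotypes. Alox5ap, whose product FLAP presents arachidonic acid to ALOX5, had 5.80 and 5.85 against 5.90 and 5.91. Both arrays labelled S1pr2-/- were higher, by 0.08 on the log2 scale (SE 0.056, 95% interval -0.09 to 0.25, adjusted p = 0.665, limma), which did not pass the test.

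Lta4h, the leukotriene A4 hydrolase that makes leukotriene B4, had 2.86 and 2.82 against 2.76 and 2.81. Both arrays labelled S1pr2-/- were lower, by a log2 difference of -0.05 (SE 0.060, 95% interval -0.23 to 0.13, adjusted p = 0.776, limma). Ltc4s, the synthase of leukotriene C4, had 4.58 and 4.61 against 4.61 and 4.86, so that S1pr2-/- replicate 2 alone stood above the rest. Its log2 difference was 0.14 (SE 0.113, 95% interval -0.20 to 0.49, adjusted p = 0.695, limma), and it was 0.27 without S1pr2-/- replicate 1 and 0.014 without S1pr2-/- replicate 2. Mast cells and basophils are rich in LTC4S, and of their 8 markers, 5 were at the floor on all arrays. Of the 3 tested, Hdc was lower and Prss34, dim with 34.6 to 45.0 intensity units, was higher at an unadjusted p under 0.05. Of all genes tested, 5.96% were lower and 4.55% were higher at that p. For the 4 genes of leukotriene synthesis, the intervals exclude a 2-fold difference in either direction.

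**Figure D4:**
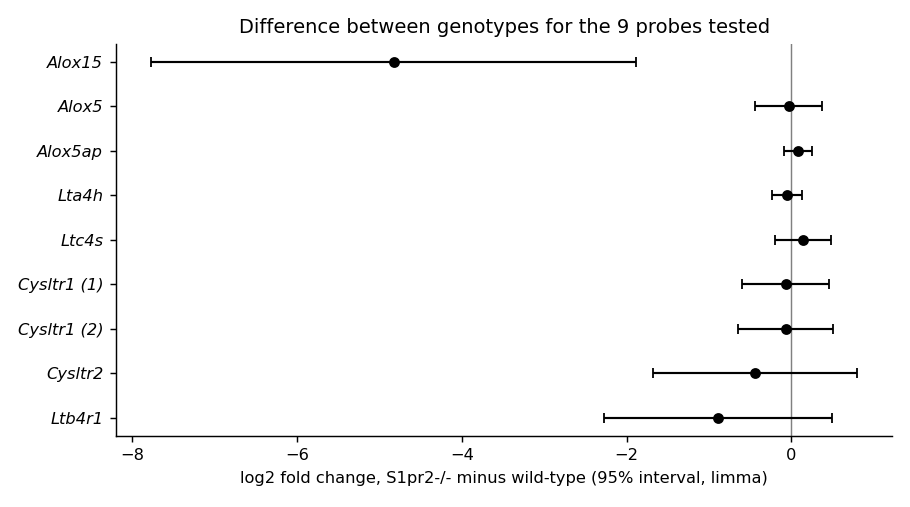
Log2 difference between genotypes, S1pr2-/- minus wild-type (horizontal axis), for the 9 member probes tested, with 95% intervals from limma. The interval of Alox15, -7.77 to -1.88, is the only one that does not reach 0, and those of Alox5, Alox5ap, Lta4h and Ltc4s are narrow around it.

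Cysltr2 and Ltb4r1 varied more between replicates than the genes of leukotriene synthesis did. Cysltr1 did so only between the arrays labelled S1pr2-/-, and no receptor passed the test. Cysltr1, the receptor with high affinity for leukotriene D4, read -0.17 and -0.13 in wild-type against -0.01 and -0.43 in the arrays labelled S1pr2-/- by its brighter probe. Its dimmer probe had -1.82 and -1.74 against -1.62 and -2.08. Both probes placed S1pr2-/- replicate 1 highest and S1pr2-/- replicate 2 lowest, and both gave a log2 difference of -0.07, with 95% intervals of -0.60 to 0.46 and -0.64 to 0.51 and adjusted p of 0.903 and 0.918 (limma). The sign turned to 0.14 for the brighter probe without S1pr2-/- replicate 2.

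Cysltr2, the other cysteinyl leukotriene receptor, had -4.33 and -3.55 against -4.04 and -4.72, with overlapping genotypes. Its log2 difference was -0.44 (SE 0.408, 95% interval -1.68 to 0.80, adjusted p = 0.726, limma), an interval too wide to bound a 2-fold fall, and with 1 array left out it ranged from -0.83 (without wild-type replicate 1) to -0.05 (without wild-type replicate 2). Ltb4r1, the high-affinity leukotriene B4 receptor of granulocytes and activated T cells, read 0.12 and 0.99 in wild-type against 0.05 and -0.71 in the arrays labelled S1pr2-/-. Both arrays labelled S1pr2-/- lay below both wild-type arrays, but wild-type replicate 1 and S1pr2-/- replicate 1 were only a little apart. The log2 difference was -0.89 (SE 0.457, 95% interval -2.27 to 0.50), or 1.85-fold lower, with an unadjusted p of 0.139 and an adjusted p of 0.594 (limma), so that it did not pass. With 1 array left out it ranged from -1.32 (without wild-type replicate 1) to -0.45 (without wild-type replicate 2). The gaps between its replicates were larger than those of 97.1% of probes in wild-type and 96.6% in S1pr2-/-. Of 9 neutrophil markers tested, 3 were lower at an unadjusted p under 0.05 (Retnlg, Cxcr2 and Csf3r), where 5.96% of all genes were, and 0 were higher. The median of the 9 was -0.11, and 3 had a difference above 0, S100a8 with 0.25, Ltf with 0.36 and Elane with 0.15. The summed ratio of the 10 measured was 89.2 and 99.997 on the wild-type arrays against 74.0 and 67.2. Ngp was at the floor on all arrays, and the part of neutrophils in the Ltb4r1 values was not tested.

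For the 2 members at the head and the end of the leukotriene B4 route, the upstream sequences are shown to set beside the lipoxygenase genes above. The format is the same: Alox5 lies at chr6:116461179-116461428 on the minus strand and Ltb4r1 at chr14:55765712-55765961 on the plus strand.
Alox5: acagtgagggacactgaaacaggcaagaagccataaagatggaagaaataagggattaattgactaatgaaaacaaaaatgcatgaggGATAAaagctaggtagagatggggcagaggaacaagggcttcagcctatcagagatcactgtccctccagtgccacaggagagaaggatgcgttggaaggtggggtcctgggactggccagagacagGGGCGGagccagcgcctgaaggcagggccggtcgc
Ltb4r1: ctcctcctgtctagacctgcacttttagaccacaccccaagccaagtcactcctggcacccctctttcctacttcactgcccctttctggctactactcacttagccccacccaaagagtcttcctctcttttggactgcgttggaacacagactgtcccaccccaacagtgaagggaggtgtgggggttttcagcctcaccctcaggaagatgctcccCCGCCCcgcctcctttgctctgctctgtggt

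Alox5 holds 1 GC box and 1 GATA core, and Ltb4r1 holds 1 GC box, read on the opposite strand. Of the remaining members in the table, Cysltr2, Lta4h and Ltc4s hold neither motif. Alox5 gave nearly equal values in both genotypes and Ltb4r1 did not pass the test, and nothing in these matches was tested against expression.

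Around the members, 40 further genes of the pathway were read from lists, with the brightest probe for each gene. Of these, 34 were tested, 5 were not above background on any array, and 6 were at the floor on all arrays (Alox8, Pla2g4c, Pla2g5, Cyp4f14, Oxgr1 and Gpr31b). At an unadjusted p under 0.05, 2 were lower (Alox12e and Ltb4r2) and 7 were higher, where 5.96% and 4.55% of 15399 genes were so, and 0 passed after adjustment. The 7 were higher by 0.20 to 0.72 log2 units, and the count fell to 4 without wild-type replicate 1, 1 without wild-type replicate 2, 2 without S1pr2-/- replicate 1 and 2 without S1pr2-/- replicate 2. The median log2 difference of the 34 genes was 0.091, against 0 over all genes.

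Of 9 tested genes of leukotriene C4 synthesis and leukotriene breakdown, 4 were higher and 0 lower: Mgst1 by 0.20, Mgst2 by 0.45 and Mgst3 by 0.31 log2 units, which are microsomal glutathione S-transferases, and Dpep1, a dipeptidase that acts on leukotriene D4, by 0.25. The dimmer probe of Mgst3 also gave 0.31 but did not pass (unadjusted p = 0.0698, limma), while that of Mgst1 gave 0.19 and passed (unadjusted p = 0.0426, limma). Dpep1 was dim, with 70.4 to 92.2 intensity units, and gave 0.14 with normexp (unadjusted p = 0.131, limma). Mgst2, which can make leukotriene C4 in place of Ltc4s, read 2.40 and 2.22 in wild-type against 2.85 and 2.66 in the arrays labelled S1pr2-/-, with no overlap. Without wild-type replicate 2, none of these 4 had an unadjusted p under 0.05 (0.0690 to 0.135, limma). Cyp4f18, which oxidises leukotriene B4, gave -0.69 (unadjusted p = 0.0870) and did not pass. Of the 2 exporters, Abcc1, the transporter of leukotriene C4, was higher by 0.22 (0.39 and 0.38 against 0.60 and 0.62, unadjusted p = 0.0215, and 0.0743 without wild-type replicate 2, limma), and Abcc4 gave 0.22 without passing.

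**Figure D5:**
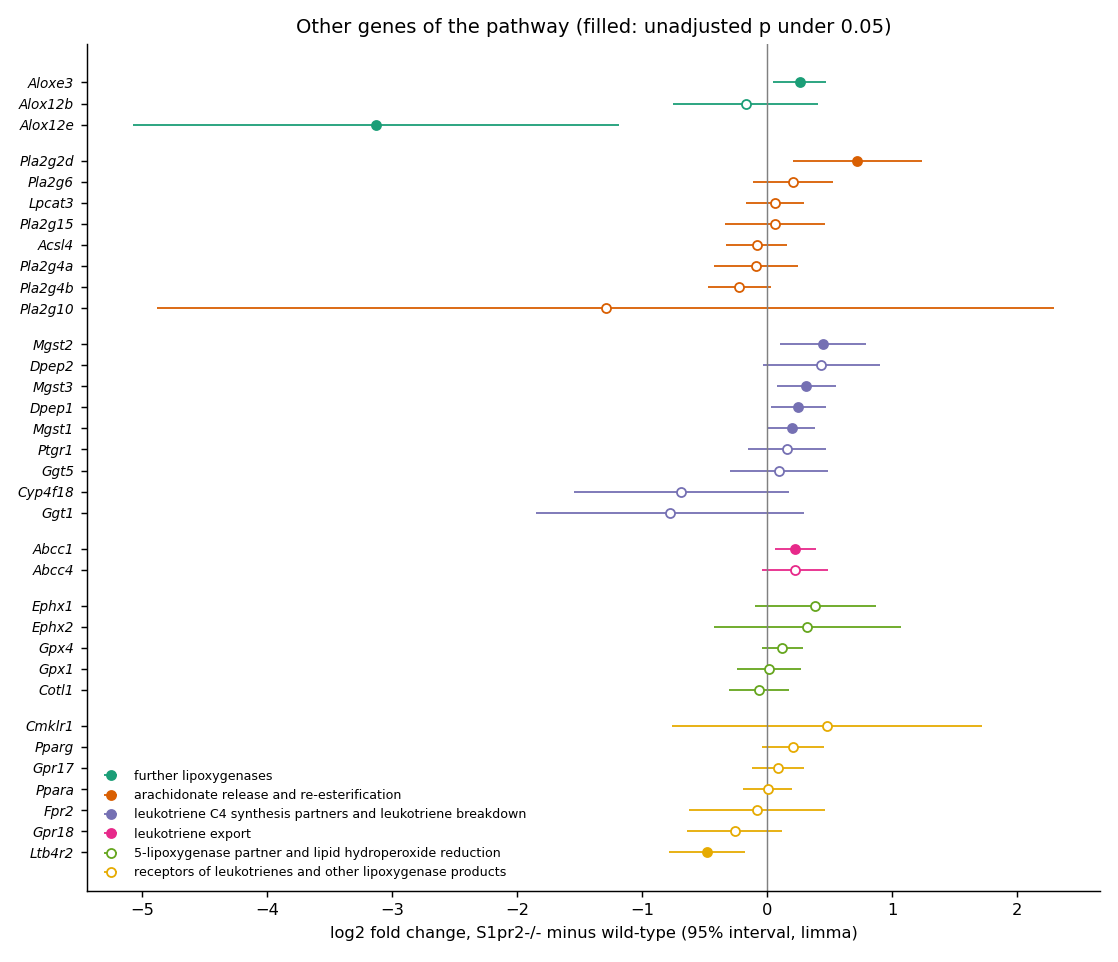
Log2 difference, S1pr2-/- minus wild-type (horizontal axis), with 95% intervals from limma, for the 34 further pathway genes tested, coloured by list. Filled points have an unadjusted p under 0.05: 2 on the lower side, Alox12e and Ltb4r2, and 7 on the higher side. Pla2g10, Ggt1, Cmklr1 and Gpr17 were at the floor on 1 or 2 arrays.

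In the remaining lists few genes passed. Among further lipoxygenases, Aloxe3, which isomerises hydroperoxides in epidermis, was higher by 0.26 (1.36 and 1.25 against 1.54 and 1.58). Its unadjusted p was 0.0291, and 0.0625 with the replicate number in the model (limma). Alox12b gave -0.17 without passing. Of 8 tested genes of arachidonate release and re-esterification, 1 was higher, the secreted phospholipase Pla2g2d, by 0.72 (0.83 by its other probe). Its unadjusted p was 0.0200 with limma and 0.0731 with the methods' t-test. The brightest of the list, the lysosomal phospholipase Pla2g15, gave 0.06. Pla2g4a, the cytosolic phospholipase that frees arachidonate for ALOX5, gave -0.09. The ALOX5 partner Cotl1 gave -0.07 and the hydroperoxide reductase Gpx4 gave 0.12, and 0 of the 5 genes in their list passed by the brightest probe. Ephx1, in the same list, gave 0.38 by that probe (unadjusted p = 0.0881, limma). Its dimmer probe gave 0.39 and passed (unadjusted p = 0.0233, limma). Of 7 tested receptors, Ltb4r2, the low-affinity leukotriene B4 receptor, was lower by a log2 difference of -0.48 (-4.10 and -3.93 against -4.56 and -4.43), while the brightest, the nuclear receptor Pparg, gave 0.21 and Fpr2, a lipoxin receptor, gave -0.08, neither of which passed. The unadjusted p of Ltb4r2 was 0.0143 and rose to 0.0558 without wild-type replicate 2 and 0.0757 without S1pr2-/- replicate 1.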

How the data were processed

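Total RNA (200 ng) from BALF cells was labelled with Cy3 and hybridized to 1-colour whole mouse genome arrays, which shared 1 slide and 1 scan, so that neither could be tested as a batch. The authors deposited spot intensity from Agilent Feature Extraction (10.7.3.1 in the submitters' processing notes, 11.0.1.1 in the file headers), corrected for background, and a table of normalized log2 values, used here only as an alternative. That table held log2 of the signal over the 75th percentile minus the wild-type midpoint: 99.6% of 39429 probes lay within 0.01 on all arrays after a constant of at most 0.0123 per array, with column medians of 0.0227, -0.0227, -0.0579 and -0.0344.

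The processed signal was scaled to the 75th percentile of each array's non-control spots, floored at 0.01 and put on the log2 scale. Outlier-flagged spots (115 to 273 per array) were dropped, no spot was saturated, and spots of a probe were averaged. Through their accession in a RefSeq table (GRCm38.p6), 27427 of 39429 probes were named. The 27158 probes that stood well above background on both arrays of 1 genotype or more were tested with limma 3.58.1 (lmFit, then eBayes, with Benjamini-Hochberg adjustment) under R 4.3.3, as S1pr2-/- minus wild-type. A gene with several probes was represented by the one with the highest mean. The scripts were tested on simulated data. Members, lists and tests were chosen with earlier results of these data known. The text names all members, the pathway genes with an unadjusted p under 0.05, the brightest of a list, and the 8 genes nearest to Alox15. Other genes (Alox12b, Cyp4f18, Pla2g4a, Gpx4, Ephx1, Fpr2 and the neighbours on the chromosome) were named after their values were seen.

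Alternatives changed the scaling (quantile, cyclic loess, or the percentile of detected probes), the background correction (normexp, offset 50), the source (the authors' table), the filters (no floor, no filter, detection on all arrays, flagged spots retained) or the test (the replicate block, a trended variance, the methods' t-test, or 1 array fewer). For normexp the median signal was used, and the fit was made on non-control spots because 1 control spot distorted it. With 1 array fewer, its partner was taken to vary as the other genotype did.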

Additional observations from a re-analysis of the deposited data

How the results depend on the processing

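Of 16 alternatives, the direction of Alox15 held in all. Its log2 differences were -4.83 to -3.68 with all arrays (adjusted p 0.389 to 0.615 with limma, and 0.663 with the methods' t-test). They were -5.80 to -3.85 with 1 array left out. At an unadjusted p under 0.05 and with all 4 arrays, the methods' t-test called 0 member probes lower, and limma with no filter called 1 higher (Alox5ap). With 1 array left out, the member called lower was not Alox15 in every fit. With 1 array left out, the log2 difference of Alox5 ranged from -0.16 to 0.09, turning to 0.089 without wild-type replicate 2 and 0.06 without S1pr2-/- replicate 1, and that of Cysltr1 from -0.28 to 0.14, turning to 0.14 without S1pr2-/- replicate 2. The cause of these turns was not tested beyond the smaller number of arrays.

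Over all probes, those higher at an unadjusted p under 0.05 numbered 1752 with quantile normalization, 1676 with the percentile over detected probes and 627 to 1336 with 1 array left out, against 1083. The number at an adjusted p under 0.05 was 2 with normexp (S1pr2 and Fbp1) and 0 otherwise. Pathway genes lower numbered 1 with quantile normalization, 4 with normexp, 1 with the methods' t-test and 0 to 3 with 1 array left out (0 without S1pr2-/- replicate 1), against 2, and those higher 1 to 4 with 1 array left out, against 7. The cause of these shifts was not tested.

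The replicate numbers are not said to mark a shared animal or day. Across the 27158 probes tested, the deviation of replicate 1 from its genotype's mean correlated at 0.187 between the genotypes. With the replicate block, Alox15 gave -4.83 with an SE of 0.151, against 0.971 without it (unadjusted p = 0.000386, adjusted p = 0.530, limma). Pathway genes lower then numbered 4 and higher 3, and the counts of member probes did not move. Depth does not apply to arrays: for Alox12, signal near background limits what can be read.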
